A study of Mus musculus with 6 samples.

Results

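Abca1, Abca5, Soat1, Nceh1 and Smpdl3a are genes of cholesterol export, cholesterol storage as esters, and the response to the liver X receptors (LXRs). They were taken by symbol from a table of 15905 transcripts of 8513 genes, in which each of the 5 genes was represented by 1 transcript. RNA had been sequenced from B16.F10 cells, a mouse melanoma line labelled as wild type and as malignant melanocytic cells, grown in medium with fetal bovine serum. In 1 group, 3 samples were treated with 3.5 µM simvastatin for 24 h, and in the other, 3 control samples had no treatment. The dose is the IC50 stated in the labels, no vehicle is named for the control, and all samples carry the same batch label. Simvastatin is a statin, which blocks the synthesis of mevalonate, the precursor of cholesterol and of the prenyl groups on small GTPases.

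The comparison addressed how the statin changes genes of lipid metabolism in these cells. The files give 1 value for each group and no value per sample, and the sources used here do not state its unit. The spread between the 3 samples of a group could therefore not be shown, and the depth behind each value is unknown. The fold changes, p-values and adjusted p-values are those of the authors' deposited table, whose test is not stated. Whether a value moved through less RNA per cell or through fewer cells with that RNA cannot be told apart in these bulk cultures.

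Cells keep free cholesterol in a narrow range by making it, importing it, exporting it and storing it as esters. LXRs are nuclear receptors that bind DNA together with retinoid X receptors (RXRs) and respond to oxysterols, oxidised forms of cholesterol, by raising the genes of sterol export. ABCA1 is the best known of these targets: it moves cholesterol and phospholipid across the plasma membrane to lipid-poor apolipoprotein A-I. SOAT1, an acyltransferase of the endoplasmic reticulum, turns free cholesterol into esters for storage, and NCEH1, a hydrolase, releases cholesterol from those esters.

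The transporter genes differed in opposite directions between the groups, and so did the storage genes, but among the 5 genes only Abca5 and Smpdl3a passed an adjusted p of 0.05. Abca5 rose 8.72-fold and Smpdl3a rose 1.77-fold in the authors' deposited table. Abca1 stood 3.11-fold lower with simvastatin and was called by the authors under their wider rule. Soat1 and Nceh1 differed by 1.25-fold and 1.37-fold, in opposite directions, and neither was called. At the adjusted p threshold, 2 of the 5 transcripts were higher and none was lower in the authors' deposited table, where 1.11% of all transcripts were higher and 0.987% were lower (2.09% together). By the authors' own call 2 were higher and 1 was lower, where 5.13% of all transcripts were called higher and 4.37% lower (9.5% together). Without adjustment 3 higher and 2 lower transcripts had p-values below 0.05, as did 9.42% of all transcripts on the higher side and 10.2% on the lower side (19.6% together). Since the 5 genes were chosen with earlier results of these data known, these counts are a description.

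**Figure D1:**
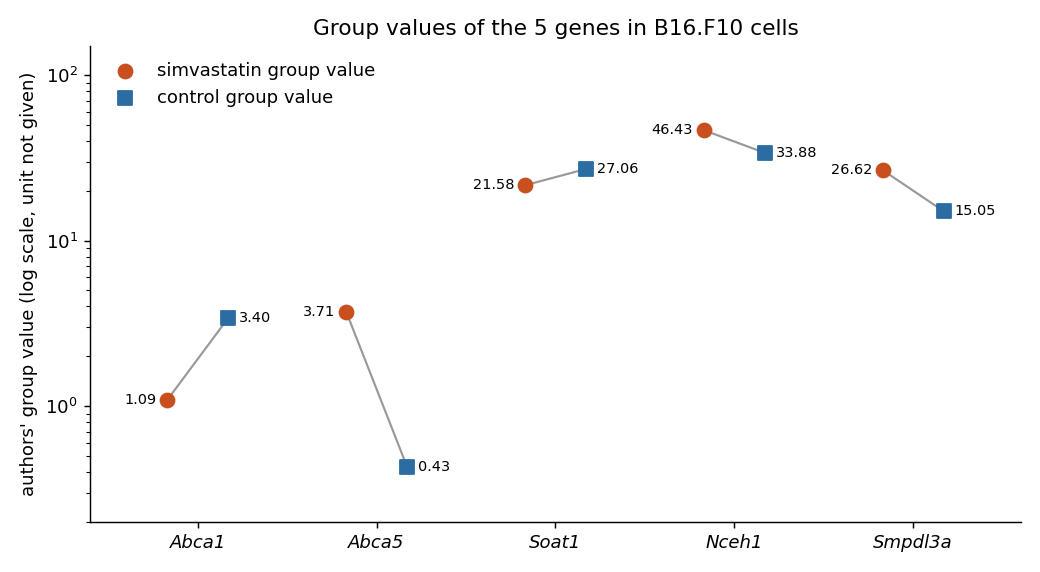
The authors' group value of each gene in simvastatin-treated cells (orange circle) and control cells (blue square), on a log axis, with the unit not stated. Abca5 (3.71 against 0.43), Nceh1 and Smpdl3a were higher with simvastatin, and Abca1 (1.09 against 3.40) and Soat1 were lower.

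Because the transporter genes Abca1 and Abca5 had the largest folds, the 250 bases before their RefSeq start sites are shown here 5′ to 3′ on the coding strand, in build GRCm38.p6. Capitals mark the E-box CACGTG, the GC box GGGCGG and the TATA box TATAAA on either strand. In Abca1 they also mark an imperfect direct repeat of the half-site AGGTCA, the kind of element LXR and RXR pairs bind. The window of Abca1 lies at chr4:53159896-53160145 on the minus strand, that of Abca5 at chr11:110337717-110337966 on the minus strand. The measured Abca5 transcript begins at 110337678, so its start differs from the RefSeq start used here.
Abca1: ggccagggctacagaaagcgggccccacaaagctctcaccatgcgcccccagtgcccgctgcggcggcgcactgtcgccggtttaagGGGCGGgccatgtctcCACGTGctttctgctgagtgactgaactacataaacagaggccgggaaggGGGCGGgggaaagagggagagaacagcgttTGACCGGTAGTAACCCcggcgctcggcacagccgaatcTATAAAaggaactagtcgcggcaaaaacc
Abca5: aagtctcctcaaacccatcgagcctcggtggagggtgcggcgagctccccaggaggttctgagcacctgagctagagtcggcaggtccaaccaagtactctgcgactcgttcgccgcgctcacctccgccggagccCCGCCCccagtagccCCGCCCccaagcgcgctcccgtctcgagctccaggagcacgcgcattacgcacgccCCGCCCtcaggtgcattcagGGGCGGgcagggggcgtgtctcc

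The windows of the 2 transporter genes held different motifs. A TATA box began 29 bases before the start of Abca1, and none was found in the window of Abca5. TATAAA was present on either strand in 12.4% of the 32817 start-site windows searched. An E-box began 147 bases before the start of Abca1, and 6.02% of windows held one. The GC box was found at 2 positions for Abca1 and at 4 for Abca5, and 32.7% of windows held at least 1. The 250 bases were 61.6% G or C in Abca1 and 69.2% in Abca5.

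The direct repeat was searched as 2 half-sites AGGTCA with 4 bases between them, on both strands. With at most 2 mismatches over the 12 half-site bases, none of the 4 genes with a window (Abca1, Abca5, Soat1 and Nceh1) held it, and 2.57% of all windows did. With at most 3 mismatches, a limit chosen after the Abca1 sequence had been read, Abca1 held 1 match, 67 bases before the start. On the strand that matches the repeat it reads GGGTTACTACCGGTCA. That looser search matched 18.5% of all windows, so the letters alone cannot tell a working element from a like sequence. Whether LXR binds this match was not tested. Nceh1 held an E-box that began 26 bases before its RefSeq start. The Nceh1 window ends at 27183003 and the measured Nceh1 transcript starts at 27182965, so the end of the window lies inside that transcript. Soat1 and Nceh1 each held 1 CCAAT box, a motif in 33.8% of windows. A match is a description of letters and not evidence of a bound factor.

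Among the export genes, Abca1 had a group value of 1.09 in simvastatin-treated cells and 3.40 in control cells in the authors' deposited table. The measured transcript, ENSMUST00000030010 of gene ENSMUSG00000015243, spans chromosome 4 from 53030787 to 53159895 in GRCm38 with 50 exons, and codes for a protein of 2261 residues. Its p was 0.004 and its adjusted p was 0.079 in the authors' deposited table, so it did not pass 0.05 but was called lower by the authors. Among the transcripts they called, the highest adjusted p was 0.2 and the smallest fold was 1.5. In the order of fold changes it was the 1053rd lowest of 15802 transcripts that have a fold. The authors' deposited table of 46 transcripts linked to aggressiveness lists it too, with the same fold, and 3 of those 46 were lower with simvastatin.

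Abca5 encodes a transporter of the same subfamily that resides in late endosomes and lysosomes and has been linked to sterol export. Its value was 3.71 with simvastatin and 0.43 in control (p = 0.001 and adjusted p = 0.042 in the authors' deposited table). The transcript, ENSMUST00000043961 of gene ENSMUSG00000018800, spans chromosome 11 from 110269369 to 110337678 with 39 exons, and its coding sequence gives 1642 residues. Its fold was the 326th highest in the table. In every transcript of the table the higher group value was at least 0.71, a level that Abca5 reached only with simvastatin. Its presence in the table may thus depend on its being higher there, so its fold is a description. Because the control value is printed with 2 decimals, rounding alone allows a ratio from 8.52 to 8.74.

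The size of the Abca5 change depended on how its low control value was treated. The authors' deposited comparison with human cells gives Abca5 a log2 fold change of 1.72, while the log2 of the fold in the main table is 3.12. A pseudocount of 1 on both group values gives a log2 ratio of 1.72 for Abca5 and -1.07 for Abca1, whose log2 ratio without it is -1.64. On that scale the 2 transporter genes remained 2.79 log2 units apart, and without it 4.76 units apart.

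**Figure D2:**
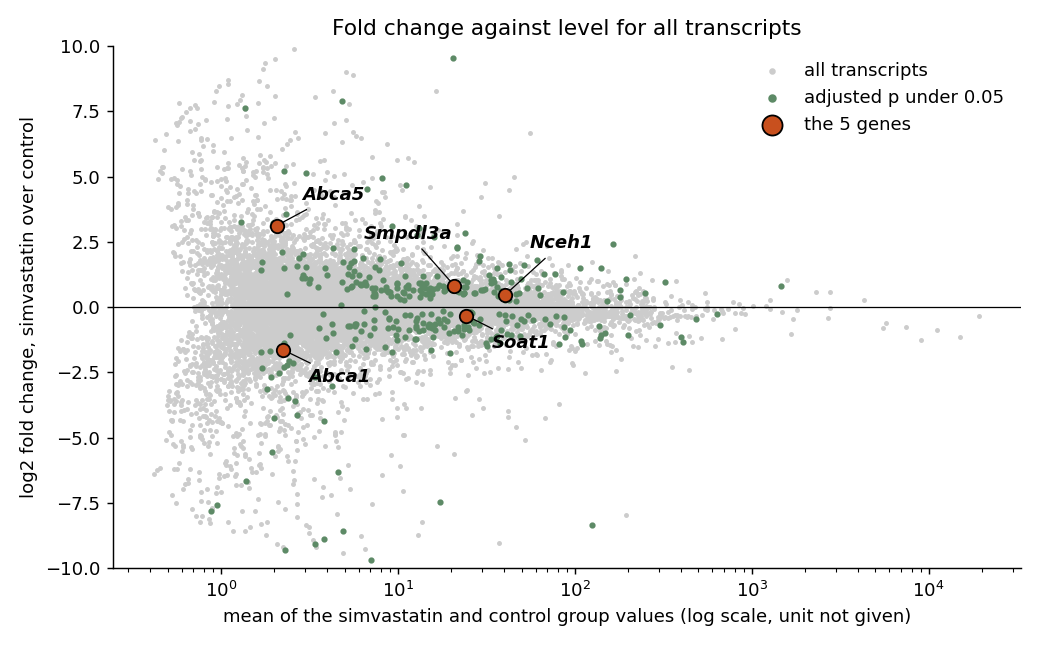
Log2 fold change, simvastatin over control, against the mean of the group values for the transcripts with both values above 0; 10 of 15802 points lie beyond the axis. Green points had an adjusted p under 0.05, and the large orange points are the 5 genes: Abca1 and Abca5 sit at low group values, where folds are widely spread, and Soat1, Nceh1 and Smpdl3a at higher ones, where the spread is narrower.

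Folds were more widely spread among transcripts with group values as low as those of both transporter genes than among transcripts with higher ones. Of 6322 transcripts with a mean group value from 1 to 5, 9.95% had a log2 fold change at or below that of Abca1, and 2.74%, or 173 transcripts, had one at or above that of Abca5. Of those 173, 8 had an adjusted p under 0.05 in the authors' deposited table. The median absolute log2 fold change was 0.78 among these transcripts and 0.31 among the 2785 transcripts with a mean from 15 to 50, the range that holds Soat1, Nceh1 and Smpdl3a.

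The storage genes differed less between the groups. Soat1 had 21.58 with simvastatin and 27.06 in control, and Nceh1 had 46.43 with simvastatin and 33.88 in control in the authors' deposited table. Neither passed, with an adjusted p of 0.112 for Soat1 and 0.139 for Nceh1 in the authors' deposited table, and both folds were under the 1.5 of the authors' calls. Of the transcripts with a mean from 15 to 50, 24.1% had a log2 fold change at or below that of Soat1 and 18.0% had one at or above that of Nceh1. The log2 fold change of Nceh1, which releases cholesterol from esters, exceeded that of Soat1, which makes them, by 0.78, a difference for which no test was possible without values per sample.

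The Soat1 transcript, ENSMUST00000189661 of gene ENSMUSG00000026600, spans chromosome 1 from 156424525 to 156474331 on the minus strand with 16 exons. The Nceh1 transcript, ENSMUST00000046515 of gene ENSMUSG00000027698, spans chromosome 3 from 27182965 to 27244958 on the plus strand with 5 exons. They code for proteins of 540 and 408 residues. GENCODE lists 8 transcripts for Soat1 and 5 for Nceh1, of which 1 each was in the table, so a shift between isoforms could not be followed. The same holds for Abca1 (1 of 2), Abca5 (1 of 5) and Smpdl3a (1 of 3).

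Smpdl3a encodes a secreted phosphodiesterase related to acid sphingomyelinase that cleaves nucleotides, and in human macrophages the gene is known to respond to LXR agonists. Its value was 26.62 with simvastatin and 15.05 in control in the authors' deposited table, with a p of 0.001 and an adjusted p of 0.049. The transcript, ENSMUST00000020022 of gene ENSMUSG00000019872, spans chromosome 10 from 57794374 to 57811830 on the plus strand with 8 exons and codes for 445 residues. Of the transcripts with a mean from 15 to 50, 7.07% had a log2 fold change at least as high as that of Smpdl3a. Its fold hardly depended on the pseudocount, with a log2 ratio of 0.78 when 1 was added to each value and 0.82 without.

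**Figure D3:**
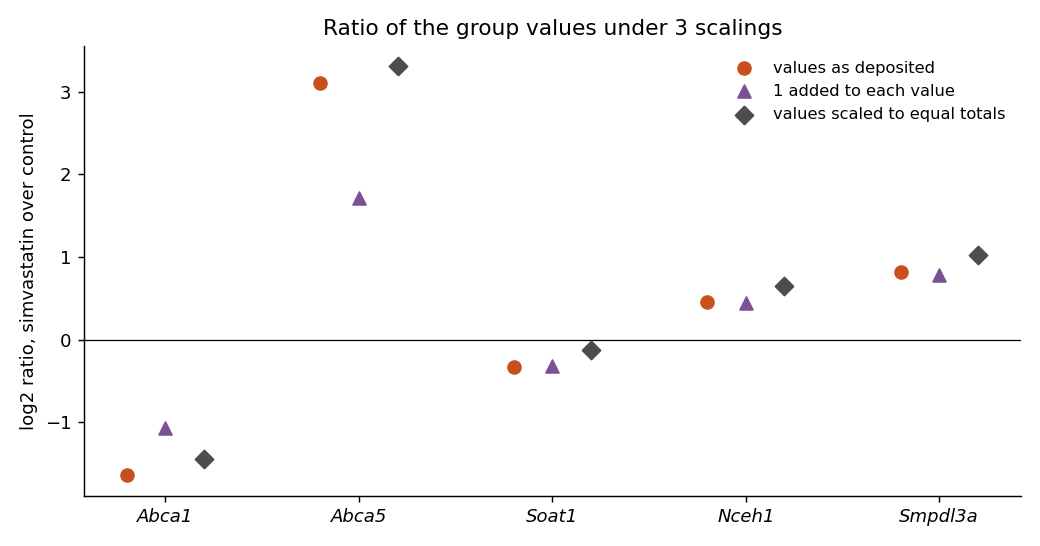
Log2 ratio of the simvastatin over the control group value for each gene, from the values as deposited (circles), with 1 added to each value (triangles) and with the groups scaled to equal totals (diamonds). Scaling to equal totals adds 0.20 to every log2 ratio, and none of the 5 was lower by less than that, so no direction could turn. The largest shift was that of Abca5, which had 3.11 as deposited and 1.72 with 1 added.

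All values in the table summed to 344210 in the simvastatin group and 394749 in the control group, while all transcripts had a median log2 fold change of 0.01. Scaling the groups to equal totals adds 0.20 to every log2 ratio. Soat1 then stood at -0.13, close to no difference, and Abca1 at -1.44, while Nceh1, Smpdl3a and Abca5 stood at 0.65, 1.02 and 3.31. The direction of the small Soat1 difference is thus the one most exposed to the scaling. At -0.33 as deposited, it could not be turned by adding 0.20.

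Of the 5 genes, Abca5 and Smpdl3a appear in the authors' comparison with A375, a human melanoma line, for which an outside signature with 10 µM simvastatin had been used. The z-scores there were 1.496 for ABCA5 and 2.38 for SMPDL3A, which ranked 31st and 12th from the top of 158 entries in the authors' deposited table. Of the 94 entries that were higher in the mouse cells, 72 (76.6%) had a z-score above 0, as did 90 (57.0%) of all 158 entries, in the authors' deposited table. The dose differs from the 3.5 µM of the mouse cells, the species differs, and a z-score is another measure than a log2 fold change. The sizes therefore cannot be set against each other.

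The authors' deposited enrichment terms of higher transcripts, from DAVID per the file header, count Abca5 among the 21 genes of cholesterol metabolic process (6.50-fold enrichment, adjusted p = 3.9e-08) and the 15 of lipid transport (3.28-fold, adjusted p = 0.0147). They count Abca5 also among 68 genes of the endosome. Smpdl3a is counted under hydrolase activity and metal ion binding, with 81 and 171 genes. None of the 5 genes is a node in the authors' deposited STRING network of 399 links between 118 genes.

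The wider pathway was described with 7 lists of 92 genes, of which 46 had a transcript in the table and 46 were not analysed here. Each gene was taken by its most abundant transcript. Of the 46 genes, 35 were higher and 11 lower in the authors' deposited table, against 51.3% higher among all genes. With the groups scaled to equal totals, a count added after seeing the data, 39 of the 46 and 64.1% of all genes were higher, and Smpd4, Osbpl5, Stard3 and Tmem97, named for this, turned to the higher side. At an adjusted p under 0.05, 1 rose and none fell, where 1.76% of all genes rose and 1.39% fell. The authors' own call covered 9 higher and 2 lower, where it covered 6.91% of all genes as higher and 5.5% as lower. Without adjustment 15 higher and 3 lower genes had p-values below 0.05, where 13.6% of all genes did on the higher side and 14.9% on the lower side.

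The LXR genes themselves did not pass. Of 8 measured receptors and cofactors, 6 were higher and 2 lower, none past the threshold (median log2 fold change 0.28, against 0.01 over all genes). Rxra, an RXR partner of the LXRs, had 25.09 with simvastatin and 24.99 in control, and the corepressor gene Ncor1 had 13.09 with simvastatin and 11.01 in control (adjusted p = 0.893 and 0.604 in the authors' deposited table). Rxrb, another RXR gene, was named after its values were seen. Its most abundant transcript had 8.76 with simvastatin and 11.62 in control, and its second had 3.48 with simvastatin and 0.68 in control (adjusted p = 0.785 and 0.792 in the authors' deposited table). Over its 7 transcripts Ncor1 summed to 49.42 with simvastatin and 34.32 in control, a log2 ratio of 0.53 against 0.25 for the most abundant one. Of the LXR genes, Nr1h2 was measured and Nr1h3 was not analysed here. Nr1h2, named after its values were seen, had 9.53 with simvastatin and 7.71 in control (adjusted p = 0.806 in the authors' deposited table).

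LXR targets other than the 5 genes stood on both sides, with 4 higher and 3 lower of 7 measured (median log2 fold change 0.07). None was past the threshold, where 1.76% of all genes rose and 1.39% fell. Fasn, the fatty acid synthase, had 179.14 with simvastatin and 90.00 in control, and Scd2, a stearoyl-CoA desaturase, had 120.43 with simvastatin and 148.01 in control (adjusted p = 0.055 and 0.753 in the authors' deposited table). Over its 4 transcripts Scd2 summed to 221.62 with simvastatin and 231.61 in control, a log2 ratio of -0.06 against -0.30 for the most abundant one. Fasn was called higher by the authors, and both genes are also targets of the sterol-regulated SREBP factors. Scd1, another desaturase, had 60.53 with simvastatin and 32.47 in control and was called higher too (adjusted p = 0.083 in the authors' deposited table). Srebf1, which encodes an SREBP and is itself an LXR target, had 6.70 with simvastatin and 10.20 in control and was called lower by the authors (adjusted p = 0.077 in the authors' deposited table). Scd1 and Srebf1 were named after their values were seen, as were 2 targets that were not called. Lpcat3, which remodels phospholipids, had 0.93 with simvastatin and 2.89 in control, and Apoe, a lipoprotein component that accepts exported cholesterol, had 12.12 with simvastatin and 4.61 in control (adjusted p = 0.506 and 0.472 in the authors' deposited table).

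**Figure D4:**
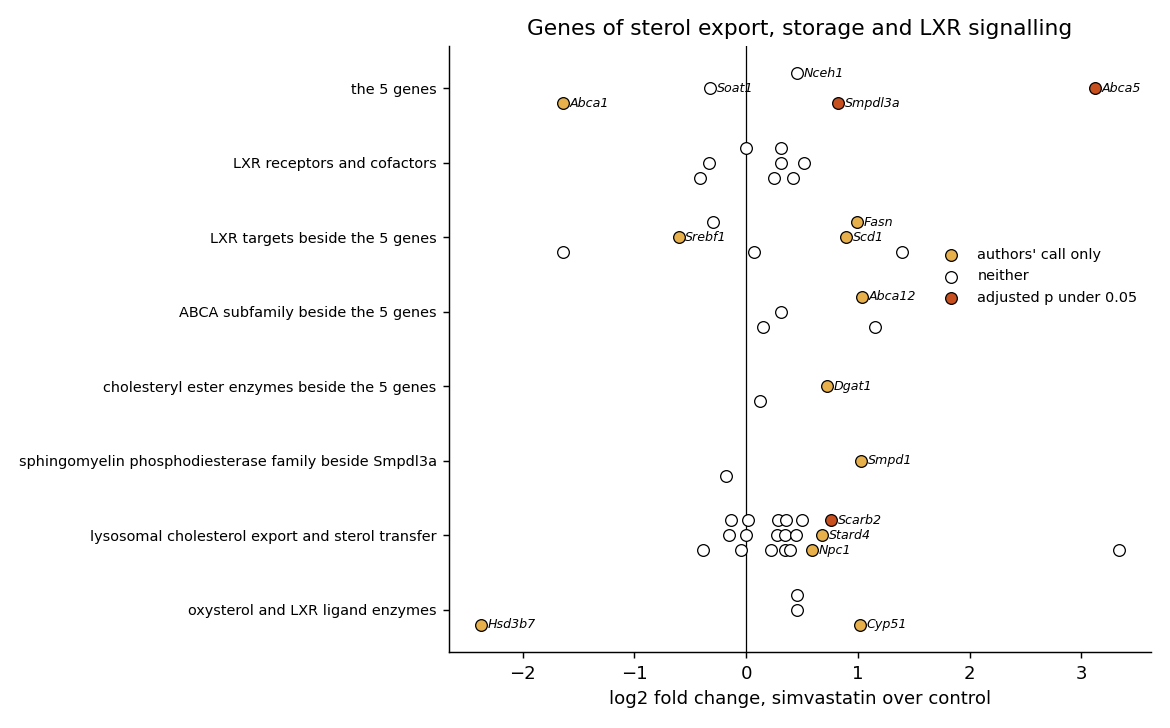
Log2 fold change, simvastatin over control, of the 5 genes (top row) and of 46 genes of 7 lists, each by its most abundant transcript. Dark orange points had an adjusted p under 0.05, light orange points were called by the authors only, and white points were neither; Abca5, Smpdl3a and Scarb2 are the dark ones, all above 0, and vertical offsets have no meaning.

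The other measured transporters of the subfamily stood on the side of Abca5. Abca2, Abca3, Abca7 and Abca12 were all higher with simvastatin in the authors' deposited table (median log2 fold change 0.67), where 51.3% of all genes were higher. None passed the threshold, where 1.76% of all genes rose, and by their own call the authors called 6.91% of all genes higher. Abca3 and Abca12 are named after their values were seen. Abca3 had 4.65 with simvastatin and 4.19 in control by its most abundant transcript (adjusted p = 0.844 in the authors' deposited table). Abca12, a lipid transporter known from the skin, had 5.30 with simvastatin and 2.59 in control and was the 1 of these called by the authors (fold 2.05, adjusted p = 0.059 in the authors' deposited table). Abca2, an endolysosomal transporter, had 7.64 with simvastatin and 3.43 in control, and Abca7, which exports phospholipid, had 5.51 with simvastatin and 4.43 in control (adjusted p = 0.382 and 0.816 in the authors' deposited table). Summed over its 3 transcripts, all higher, Abca7 had 16.4 with simvastatin and 8.74 in control, a log2 ratio of 0.91 against 0.31 for the most abundant transcript. Of the 5 measured genes of the subfamily other than Abca5, Abca1 was the only one with a lower value. On chromosome 11, Abca5 lies in a cluster with Abca6, Abca8a, Abca8b and Abca9, which were not analysed here.

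The list of cholesteryl ester enzymes beside Soat1 and Nceh1 also held Dgat1, which makes triglyceride and not cholesteryl esters. Of this list Lipa and Dgat1 were measured, and neither passed, while Dgat1 was called higher by the authors. Lipa, the lysosomal acid lipase that frees cholesterol from imported esters, had 37.42 with simvastatin and 34.18 in control (adjusted p = 0.947 in the authors' deposited table). Dgat1, a triglyceride synthesis gene of the same acyltransferase family as Soat1, had 9.53 with simvastatin and 5.79 in control (adjusted p = 0.133 in the authors' deposited table). Among relatives of Smpdl3a, Smpd1, the acid sphingomyelinase of lysosomes, had 78.69 with simvastatin and 38.66 in control, with an adjusted p of 0.053 in the authors' deposited table. Its fold was 2.04, and the authors called it higher. Smpd4, a neutral sphingomyelinase, had 7.43 with simvastatin and 8.40 in control (adjusted p = 0.989 in the authors' deposited table). Over its 3 transcripts Smpd4 summed to 11.08 with simvastatin and 13.59 in control, a log2 ratio of -0.29 against -0.18 for the most abundant one.

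In the list of lysosomal cholesterol export and sterol transfer, 15 of 19 measured genes were higher, against 51.3% of all genes. Past the threshold 1 rose, where 1.76% of all genes did (median log2 fold change 0.34). The 15 include Gramd1a and Gramd1b, named after their values were seen, whose most abundant transcripts hardly differed. Summed over their transcripts both were lower, with log2 ratios of -0.11 and -0.09. Scarb2, a lysosomal membrane protein also called LIMP-2, rose 1.69-fold to 22.87, against 13.54 in control (adjusted p = 0.042 in the authors' deposited table). Npc1 and Npc2, named after their values were seen, hand cholesterol out of lysosomes, and had values of 24.18 and 65.37 with simvastatin against 16.09 and 48.16 in control (adjusted p = 0.166 and 0.105 in the authors' deposited table). By most abundant transcript, the authors called Scarb2, Npc1 and Stard4, a sterol transfer gene also named after its values were seen, higher in this list. Over all genes they called 6.91% higher on that basis. They also called a second Npc2 transcript higher, which had 4.54 with simvastatin and 2.95 in control (adjusted p = 0.143 in the authors' deposited table). Osbpl9, an oxysterol-binding protein family gene, was also named after its values were seen. Its most abundant transcript had 21.66 with simvastatin and 2.15 in control, while a second one, an assembled model, had 2.01 with simvastatin and 7.47 in control (adjusted p = 0.462 and 0.065 in the authors' deposited table) and was called lower by the authors, so the transcripts of this gene stood in opposite directions.

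The list of oxysterol and LXR ligand enzymes held 9 genes, of which 4 were measured. The other 5, Ch25h, Cyp27a1, Cyp46a1, Cyp7b1 and Sult2b1, were not analysed here. Of the 4, 3 were higher and 1 was lower (median log2 fold change 0.45). None was past the threshold, where 1.76% of all genes rose and 1.39% fell. The 3 higher ones, Cyp51, Dhcr7 and Ebp (named after its values were seen), are enzymes of cholesterol synthesis. Cyp51, the lanosterol demethylase of cholesterol synthesis, had 83.00 with simvastatin and 40.85 in control, and was called higher by the authors (adjusted p = 0.055 in the authors' deposited table). Dhcr7, the reductase of 7-dehydrocholesterol, had 39.43 with simvastatin and 28.76 in control by its most abundant transcript (adjusted p = 0.784 in the authors' deposited table). Summed over its 4 transcripts it had 81.58 with simvastatin and 38.75 in control, a log2 ratio of 1.07 against 0.45 for the most abundant one. The lower one, Hsd3b7, a bile acid enzyme that acts on hydroxylated sterols, was named after its values were seen and had 0.44 with simvastatin and 2.27 in control, and was called lower by the authors (adjusted p = 0.126 in the authors' deposited table).

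None of the nearest measured genes on either side of the 5 genes passed the threshold by its most abundant transcript. Of all genes 1.76% rose and 1.39% fell past it. The neighbours named here were named after their values were seen. The nearest measured gene on the side of lower coordinates from Abca1 is Nipsnap3b, at 8.73 kb, with 11.10 with simvastatin and 8.45 in control (adjusted p = 0.470 in the authors' deposited table). Map2k6, a kinase gene at 61.4 kb from Abca5, had 1.11 with simvastatin and 4.44 in control, opposite to Abca5 (adjusted p = 0.089 in the authors' deposited table). Fabp7, a fatty acid binding protein gene at 5.88 kb from Smpdl3a, had 5.50 with simvastatin and 7.55 in control (adjusted p = 0.346 in the authors' deposited table). These 3 stood opposite to the gene beside them. Slc44a1, on the other side of Abca1, was lower like Abca1, with 10.19 with simvastatin and 12.06 in control. Gm2000, beside Soat1, was lower like Soat1, with 57.23 with simvastatin and 73.04 in control (adjusted p = 0.052 and 0.169 in the authors' deposited table).

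The labelled cell type was checked with markers. All 8 melanocyte genes had transcripts, whose sum in the authors' deposited table was 11465 with simvastatin and 8012 in control. By their most abundant transcript 7 were higher and 1 lower, where 51.3% of all genes were higher and 1.76% rose past the threshold. Tyr and Sox10, named after their values were seen, changed side when summed. Tyr summed to 50.22 with simvastatin and 53.09 in control, and Sox10, the 1 lower, to 45.03 with simvastatin and 44.15 in control. Of the 8 genes Gpnmb, a glycoprotein of melanosomes and lysosomes named after its values were seen, rose past the threshold, with 1856 in the simvastatin group and 1060.14 in the control group (adjusted p = 0.042 in the authors' deposited table). Of 16 markers of keratinocytes, fibroblasts, leukocytes and endothelium, Cd68 was the 1 with a transcript in the authors' deposited table, at 0.93 with simvastatin and 0.37 in control. The part of the melanocyte genes' higher sum in the results above was not tested.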

How the data were processed

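Total RNA of 6 samples had been made into stranded libraries, per the labels' protocols, and groups were read from the titles. The submitters' processing notes name HISAT2 2.0.5, StringTie and the build GRCm38 (mm10). The sources used here do not state the counting, any filter on low values, the test or the unit. For each transcript the authors deposited 1 value for each group, a fold ratio with a sign, a p-value and an adjusted p-value, both with 3 decimals. The higher of the 2 group values was at least 0.71 in every transcript. Transcripts below that in 1 group, such as Abca5 in control (0.43) and Hsd3b7 with simvastatin (0.44), reached it only through the other group. The authors' deposited comparison with A375 cells holds a log2 fold change and a z-score, and the STRING links carry an interaction score, per the file headers.

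Because no values per sample were used, no test was refitted, which is the case the plan had foreseen, and calls are the authors' adjusted p under 0.05. A group was at 0 for 103 transcripts, which have no fold here. Log2 ratios and counts were computed in Python 3.11.15, with coordinates from GENCODE mouse release 21 (GRCm38) and promoter windows from RefSeq (GRCm38.p6). Matching by symbol found windows for 4 of the 5 genes. The motif search and the p adjustment were tested on simulated data. Alternatives were the authors' own call, unadjusted p, an adjustment recomputed here, Ensembl transcripts only, a mean of at least 1, a pseudocount of 1 and equal totals. From each list, genes past the threshold were named (up to 4), or otherwise the 2 of highest mean value. From the lists, 2 genes are not reported here. The 5 genes and the lists were chosen with earlier results of these data known. The series text calls the 3 samples of a group biological replicates, and p-values measure the spread between them only as far as that holds.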

Additional observations from a re-analysis of the deposited data

How the results depend on the processing

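No gene total turned direction, and none of the alternatives could have turned one here. Scaling the groups to equal totals adds 0.20 to a log2 ratio, and no gene total was lower by less than that. The count of 2 higher transcripts among the 5 genes stayed within 1.5 times under each alternative that gives a count (3 without adjustment). The adjustment recomputed here used p-values with 3 decimals and gave Abca5 and Smpdl3a the same 0.036. It therefore could not show whether Smpdl3a, at 0.049 in the authors' deposited table, stays past the threshold. The count of lower transcripts, 0 at an adjusted p under 0.05, was 1 with the authors' own call and 2 without adjustment. The Abca5 log2 ratio of 3.11 was 1.72 with a pseudocount of 1, because its control value is below 1. Over the 7 lists the 1 higher and 0 lower genes became 9 and 2 with the authors' own call and 15 and 3 without adjustment, both wider rules by construction. The search for the direct repeat in promoters found 0 genes with at most 2 mismatches and 1 with at most 3, the limit added after seeing the data. Each gene had 1 Ensembl transcript with a mean of at least 1, so the choices of transcript and of a minimum mean could not change its value. The group values carry no replicate error or depth. No replicate could be left out, and no paired analysis was possible because the columns hold 1 value per group and carry no replicate number.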
